A study of Homo sapiens with 10 samples.

Results

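The 9 genes described here encode B-cell surface antigens: MS4A1 (the protein CD20), CD22, CD37, CD38, CD52, CD72, CR2 (CD21), FCER2 (CD23) and CD24. They were taken by symbol, and all 9 of the 25275 symbols in the deposited tables were found. The study holds 10 samples of TMD8 and OCI-LY10, established human lines of diffuse large B-cell lymphoma of the activated B-cell type, and asks what depends on the transcription factor STAT3. Used here are the 6 RNA-seq libraries. In OCI-LY10, 1 library carried STAT3 shRNA 10, 1 carried STAT3 shRNA 16 and 1 carried a control shRNA, each under doxycycline (20 ng/ml, 2 days), which switches the shRNA on, so the control cells received doxycycline too. The 3 TMD8 libraries carried the same 3 kinds of shRNA under the same induction, but the columns of their table bear no names. They are given as columns 1, 2 and 3, and no shRNA is assigned to a column. The labels do not say whether a line was a bulk population or a clone. The 4 STAT3 ChIP-seq samples were not analysed here.

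Surface antigens of B cells set how strongly the B cell receptor signals and which partners the cell can bind, and several are targets of lymphoma antibodies. CD20 and the tetraspanin CD37 sit in the membrane of mature B cells, while CD52 and CD24 are short glycoproteins held by a lipid (GPI) anchor. CD22 and CD72 are inhibitory receptors that recruit the phosphatase SHP-1, CD21 and CD23 bind complement fragments and IgE, and CD38 is an enzyme on the cell surface that consumes NAD. Many of these antigens change as a B cell passes through the germinal centre or becomes a plasma cell.

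Promoter sequence is shown for the members whose level differed most between libraries, or whose window held a searched motif. RefSeq (GRCh38.p14) gave 10 windows for 7 of the 9 members, each of 250 bases directly before a gene start. MS4A1 and CD37 had no entry. Both strands were searched for the STAT motif TTCNNNGAA, the STAT6-type form of that motif, with 1 more free base in the middle, the RBPJ motif GTGGGAA and the octamer ATTTGCAT. The last 3 motifs were chosen after these sequences had been seen. The windows below run 5′ to 3′ on the gene's strand, with motif matches in capitals.
FCER2, upstream start, chr19:7702132-7702381, minus strand: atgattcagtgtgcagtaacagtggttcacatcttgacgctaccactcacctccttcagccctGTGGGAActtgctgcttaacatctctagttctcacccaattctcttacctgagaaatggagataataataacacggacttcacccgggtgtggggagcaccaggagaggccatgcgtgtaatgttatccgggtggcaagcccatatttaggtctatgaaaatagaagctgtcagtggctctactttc
FCER2, downstream start, chr19:7699442-7699691, minus strand: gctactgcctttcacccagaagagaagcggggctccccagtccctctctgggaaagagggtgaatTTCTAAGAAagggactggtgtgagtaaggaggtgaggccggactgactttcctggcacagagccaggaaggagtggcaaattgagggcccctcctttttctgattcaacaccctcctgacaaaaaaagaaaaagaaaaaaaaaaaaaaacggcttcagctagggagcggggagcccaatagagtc
CD24, its most downstream start, chr6:106974040-106974289, minus strand: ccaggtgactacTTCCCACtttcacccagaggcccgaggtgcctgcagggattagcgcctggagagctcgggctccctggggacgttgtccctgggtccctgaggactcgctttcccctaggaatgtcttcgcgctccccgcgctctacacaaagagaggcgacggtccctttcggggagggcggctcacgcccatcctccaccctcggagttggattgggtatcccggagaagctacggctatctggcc
CD52, chr1:26317708-26317957, plus strand, no match: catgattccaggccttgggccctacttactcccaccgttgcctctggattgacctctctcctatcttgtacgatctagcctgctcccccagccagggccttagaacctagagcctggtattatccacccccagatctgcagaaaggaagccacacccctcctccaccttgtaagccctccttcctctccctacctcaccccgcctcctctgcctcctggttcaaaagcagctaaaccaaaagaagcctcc
CD38, chr4:15778078-15778327, plus strand: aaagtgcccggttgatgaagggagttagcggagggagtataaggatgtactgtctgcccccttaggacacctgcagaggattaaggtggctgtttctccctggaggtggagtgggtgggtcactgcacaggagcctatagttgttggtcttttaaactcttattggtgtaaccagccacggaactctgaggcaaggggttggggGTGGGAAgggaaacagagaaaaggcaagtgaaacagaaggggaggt

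The STAT motif TTCNNNGAA was found in 1 of the 10 windows, that of the downstream start of FCER2, where it begins 185 bases before the start. It occurs in 6.57% of 35116 promoter windows of the same length. The RBPJ motif GTGGGAA, which occurs in 5.43% of them, was found in the upstream FCER2 window (187 bases before the start), in CD38 (46 bases before) and on the opposite strand in the third CD24 window (238 bases before). The octamer ATTTGCAT and the STAT6-type form, held by 1.63% and 5.38% of all windows, were found in none of the 10. A match of letters is a description of the sequence and not a binding site.

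In OCI-LY10 the library with the label control shRNA was unlike those with STAT3 shRNA. Across 23247 genes other than small RNAs, the STAT3 shRNA libraries correlated with each other at r = 0.997 (Pearson, log2(FPKM + 1), a description since genes are not replicates). They correlated with the control library at only 0.938 and 0.939, whereas that library correlated with the 3 TMD8 columns at 0.975 to 0.985. The columns of TMD8 correlated with one another at 0.993 to 0.997. By genes tied to a chromosome, 1 of the 3 OCI-LY10 libraries did not match the rest. Every difference below between STAT3 shRNA and control was measured across this gap, and an effect of STAT3 depletion cannot be told apart from any other difference between these libraries, a control library of other cells than its label gives included. It is called the control library here by its label. The comparison has no other control library, so it could not be repeated without this one. STAT3 itself stood at 11.1 and 10.6 FPKM (fragments scaled to gene length and library size) under shRNAs 10 and 16, against 16.5 in the control library, a log2 change of −0.56 (SE 0.10, limma adjusted p = 0.0465). STAT3 did not pass when the pseudocount was 0.1 FPKM, when low values were kept, or when small RNA genes were removed (limma adjusted p = 0.0508, 0.0688 and 0.0676).

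All 6 libraries carried B-cell transcripts. Each of the 10 B-cell defining markers, such as CD79A, CD79B and PAX5, was above 1 FPKM in every library. Their summed level was 3213 and 3575 FPKM in the STAT3 shRNA libraries, 2115 in the control library and 2611 to 3055 in TMD8. All 12 T and NK cell markers and all 10 myeloid markers were under the filter used for testing, with summed levels of 0.882 to 2.37 and 0.690 to 3.71 FPKM over the 6 libraries. Of 12 stromal and epithelial markers, 2 were listed at 0 in every library. The summed level of those 12 was 11.0 and 12.2 FPKM in the STAT3 shRNA libraries, against 40.3 in the control library and 22.2 to 23.2 in TMD8. In the STAT3 shRNA libraries most of it was EPCAM, at 4.39 FPKM in each, and PECAM1, at 5.43 and 6.05, and in the control library most was CDH1, at 32.6 FPKM. The part of these cells' markers in the results was not tested.

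In OCI-LY10, 5 of the 9 antigens were higher in the STAT3 shRNA libraries than in the control library (MS4A1, CD37, CD52, FCER2, CD38) and 2 were lower (CD24, CD22). CD72 did not pass the test, and CR2 was too low to be tested. The test was limma on log2(FPKM + 1) over genes of mean 1 FPKM or more, with a Benjamini-Hochberg adjusted p below 0.05, and it treats the STAT3 shRNAs as replicates of each other. The same test called 37.7% of all 11162 genes, 20.3% higher and 17.4% lower. Higher genes made up 53.8% of those calls, 38.2% without the filter on low values and 64.5% with small RNA genes left out. FCER2 and CD24 passed the filter through the group in which they are high, so the count of called members is a description and not support. Several gene lists below hold such genes too, and their counts are to be read beside the same shares of all genes. The median log2 change, likewise a description and not support, was 1.4 over the 8 members tested and 0.06 over all tested genes. FCER2 and CD24 enter that median, and the members were chosen with earlier results of these data known. Counted without a test at 1.5-fold with both shRNAs, the numbers were again 5 higher and 2 lower, against 20.1% and 17.2% of all tested genes. In bulk RNA, fewer cells of a kind and less RNA per cell cannot be told apart.

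**Figure D1:**
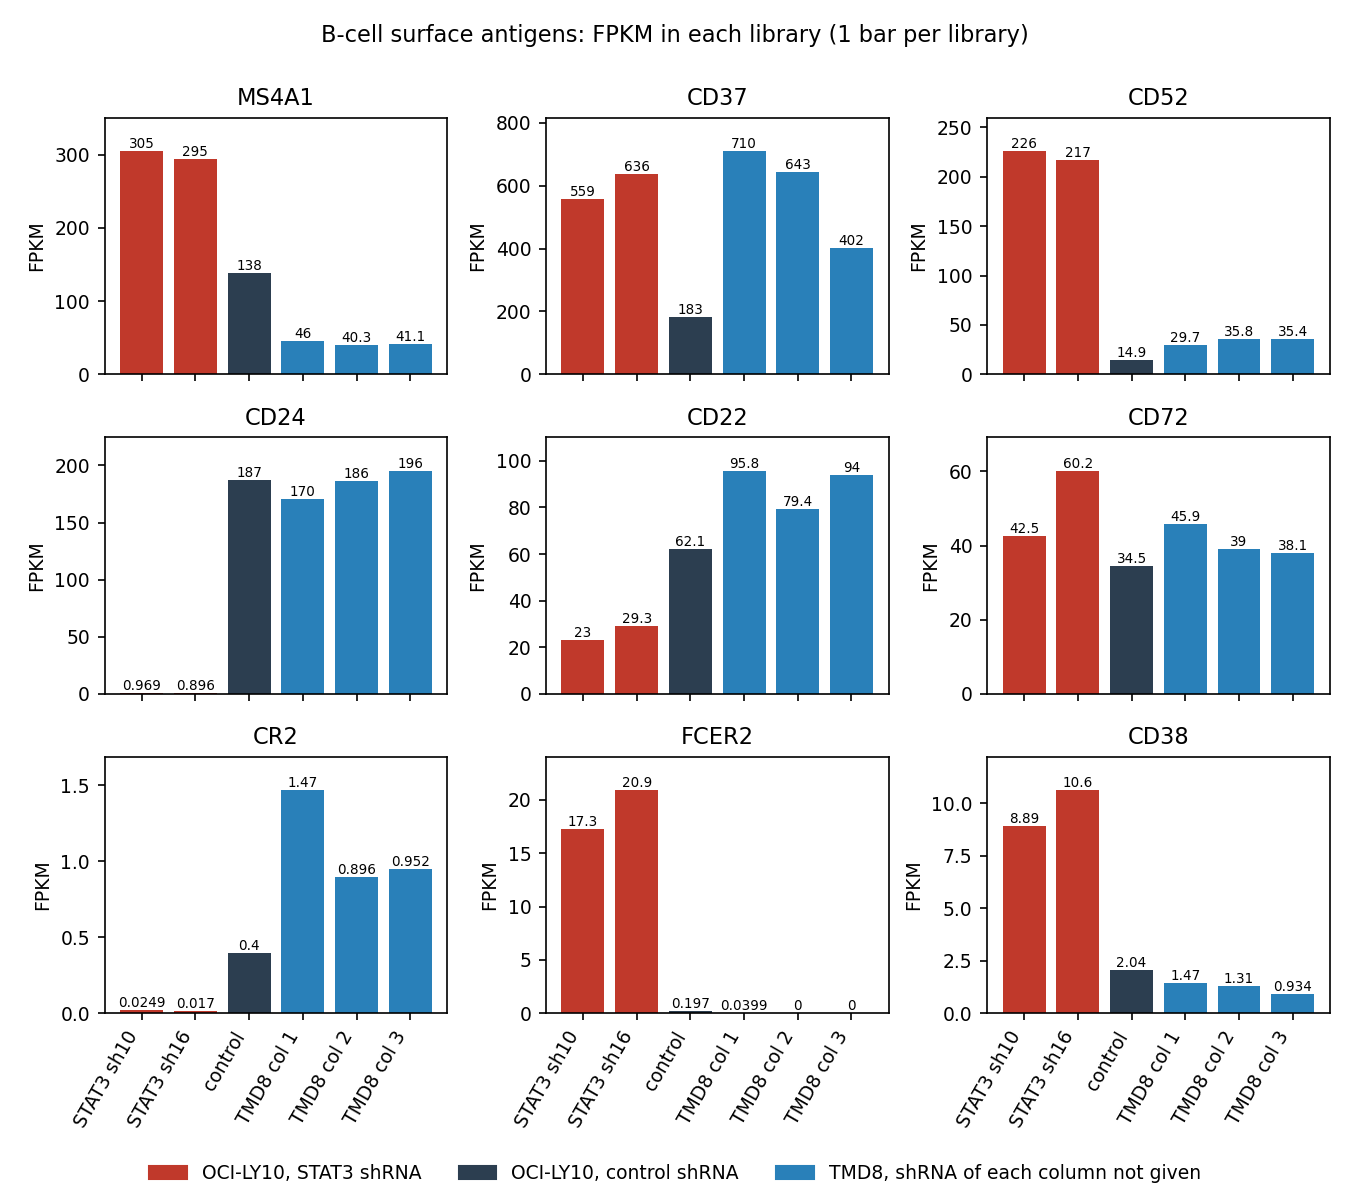
FPKM of each of the 9 antigens (y axis, linear, a scale for each panel) in the 6 libraries (x axis, 1 bar per library, no error bars): OCI-LY10 with STAT3 shRNA 10 and 16, OCI-LY10 with control shRNA, and the 3 unnamed TMD8 columns. CD24 is near 0 only in the OCI-LY10 STAT3 shRNA libraries, at 0.969 and 0.896 FPKM, while FCER2 is above 1 FPKM only there, at 17.3 and 20.9.

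Among the membrane-spanning antigens, MS4A1, the gene of the rituximab target CD20, was at 305 and 295 FPKM with shRNAs 10 and 16, against 138 in the control library. The STAT3 shRNA libraries lay close together and both above the control, at a mean of 299.7 ± 7.28 FPKM (SD, n = 2). This was 2.16 times the control level, a log2 change of 1.11 (SE 0.09, limma adjusted p = 0.0164). In TMD8, MS4A1 stood at 46.0, 40.3 and 41.1 FPKM in columns 1 to 3, below each of the OCI-LY10 libraries. CD37, a tetraspanin that organises signalling receptors in the B-cell membrane, was at 559 and 636 FPKM with shRNAs 10 and 16, against 183 in the control library. Its mean of 598 ± 54.6 FPKM (SD, n = 2) was 3.27 times the control (log2 change 1.70, SE 0.13, limma adjusted p = 0.0161). The TMD8 columns held 710.3, 643 and 402 FPKM of CD37, a 1.77-fold range that takes in both STAT3 shRNA libraries but not the control.

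The other tetraspanin genes did not follow CD37 as a group, and the other MS4A genes were too low to be compared with MS4A1. All 13 other MS4A genes were under the filter, and 12 of them were under 1 FPKM in all 6 libraries. Their summed levels were 0.407 and 0.484 FPKM in the STAT3 shRNA libraries against 2.41 in the control library. Of 13 other tetraspanin genes tested, 1 rose and 6 fell. The riser was CD53, a tetraspanin of leukocytes, at 208 and 199.9 FPKM with the STAT3 shRNAs against 89.3 in the control library (limma adjusted p = 0.0155). TSPAN13 fell to 0.832 and 0.532 FPKM, against 10.4 in the control library (limma adjusted p = 0.0121). CD9 was listed at 0 with both STAT3 shRNAs and at 7.07 FPKM in the control library. Over these 13 genes, CD37 not among them, the median log2 change was −0.81, beside 0.06 over all genes. CD9 and TSPAN13 passed the filter through the control library alone, and at a filter of 5 FPKM 1 rose and 2 fell of 9 tested.

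CD52 and CD24, both GPI-anchored, moved in opposite directions. CD52, the short glycopeptide bound by alemtuzumab, was at 226 and 217 FPKM with shRNAs 10 and 16, against 14.9 in the control library. At 221 ± 6.61 FPKM (SD, n = 2) the STAT3 shRNA mean was 14.9 times the control (log2 change 3.81, SE 0.09, limma adjusted p = 0.00689), and 1.93% of tested genes changed more. TMD8 held 29.7, 35.8 and 35.4 FPKM of CD52 in columns 1 to 3, between the OCI-LY10 control and the STAT3 shRNA libraries. CD24, a mucin-like ligand of the inhibitory receptor Siglec-10, was at 0.969 and 0.896 FPKM with shRNAs 10 and 16, against 187 in the control library. The STAT3 shRNA mean, 0.932 ± 0.0515 FPKM (SD, n = 2), was 0.497% of the control, a log2 change of −6.61 (SE 0.10, limma adjusted p = 0.00676). Only 29 of the 11162 tested genes changed more in absolute terms. TMD8 held 170.5, 186 and 196 FPKM of CD24, a range that contains the OCI-LY10 control library and no STAT3 shRNA library. CD24 has near-identical processed copies elsewhere in the genome, among them on the Y chromosome. How reads shared with them were counted is not given in the sources used here, nor is the chromosome on which the annotation placed CD24, so its values are uncertain. The CD24 window shown above is from chromosome 6 in GRCh38.p14, another build than the hg19 of these values. The OCI-LY10 libraries also differed by genes tied to a chromosome, as said above. Whether the CD24 difference goes with that mismatch was not tested.

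Among genes that build the GPI anchor, more rose than fell, and most did not pass. Of 26 tested, 8 rose, 3 fell and 15 did not pass, with a median log2 change of 0.25. Of all tested genes, 20.3% were called higher and 17.4% lower. With small RNA genes left out 11 rose and 3 fell, a setting in which 64.5% of all calls were higher. PIGV rose by 1.57 and PIGL by 1.39 on the log2 scale, while PIGY fell by 1.70 and PIGS fell by 0.93. Without the filter on low values 3 rose and 0 fell, and PIGL, PIGY and PIGS were among the calls lost (limma adjusted p = 0.0779, 0.0834 and 0.0592). Of 7 other GPI-anchored antigens tested, LY6E rose, while CD58 and CD55 fell, and with small RNA genes left out 4 rose and 3 fell. CD58, the adhesion ligand of CD2 on T cells, was listed at 0 with both STAT3 shRNAs and stood at 33.7 FPKM in the control library. CD55, which limits complement, was at 2.17 and 2.55 FPKM with the STAT3 shRNAs against 6.13 in the control library, and its call was lost without the filter (limma adjusted p = 0.0652). LY6E was at 76.1 and 97.3 FPKM with the STAT3 shRNAs, against 0.0958 in the control library and a listed 0 in all 3 TMD8 columns.

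**Figure D2:**
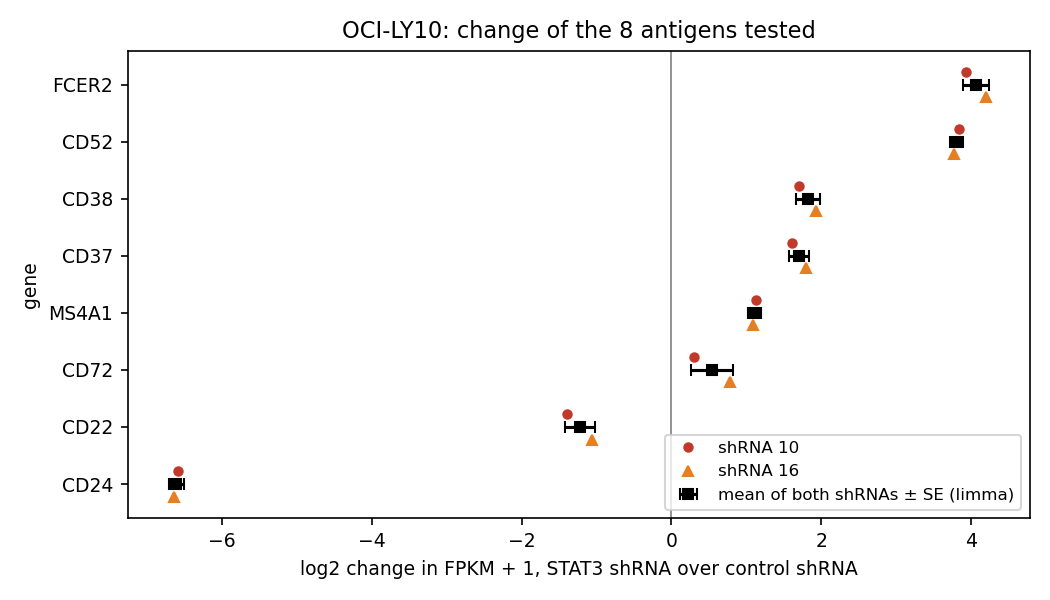
Log2 change in FPKM + 1 of STAT3 shRNA over control shRNA in OCI-LY10 (x axis) for the 8 antigens tested (y axis), with shRNA 10 as circles, shRNA 16 as triangles, and their mean with its limma standard error as squares with bars. The shRNAs lie on the same side of 0 for each gene, from CD24 at −6.58 and −6.63 to FCER2 at 3.93 and 4.19.

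Of the inhibitory receptors, CD22, a sialic acid-binding receptor that dampens B cell receptor signalling, was at 23.0 and 29.3 FPKM with shRNAs 10 and 16, against 62.1 in the control library. Their mean of 26.2 ± 4.43 FPKM (SD, n = 2) was 42.2% of the control (log2 change −1.22, SE 0.20, limma adjusted p = 0.0384). Testing all expressed genes, with no filter on low values, ended the call (limma adjusted p = 0.0956). TMD8 held 95.8, 79.4 and 94.0 FPKM of CD22, above every OCI-LY10 library. CD72, a lectin-like receptor that binds SHP-1, was at 42.5 and 60.2 FPKM with shRNAs 10 and 16, against 34.5 in the control library. Both shRNAs lay above the control, yet they differed from each other by 1.42-fold and the change did not pass (log2 change 0.54, SE 0.28, limma adjusted p = 0.225). A larger difference between the shRNAs was seen in 5.13% of tested genes. The TMD8 columns, at 45.9, 39.0 and 38.1 FPKM of CD72, overlapped the level with shRNA 10.

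Partners of these receptors also differed between the libraries. ST6GAL1, the enzyme that makes the sialylated glycans bound by CD22, was at 203 and 227 FPKM with the STAT3 shRNAs, against 17.5 in the control library (log2 change 3.55, SE 0.12, limma adjusted p = 0.0075) and 54.0 to 73.5 in TMD8. The kinase gene LYN, whose product phosphorylates the inhibitory tails, stood at 98.1 and 104 FPKM against 271 in the control library (limma adjusted p = 0.0136). PTPN6, which encodes SHP-1, was at 45.7 and 66.2 FPKM against 287 (limma adjusted p = 0.0266), and it lost its call without the filter (adjusted p = 0.0769). INPP5D, the inositol phosphatase SHIP-1, went the other way, at 102 and 100.2 FPKM against 24.1 (limma adjusted p = 0.00864). In this list of 8 genes 2 rose, 2 fell and 4 did not pass, and 4 rose and 2 fell with small RNA genes left out.

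Among 14 other inhibitory receptor genes tested, 5 rose, 7 fell and 2 did not pass, with a median log2 change of −0.72. Of all tested genes, 20.3% were called higher and 17.4% lower. LAIR1, a collagen receptor, was at 12.8 and 21.4 FPKM with the STAT3 shRNAs against 1.62 in the control library (limma adjusted p = 0.0314), a call lost without the filter (adjusted p = 0.0883). PECAM1, an adhesion receptor of endothelium and leukocytes, was at 5.43 and 6.05 FPKM against 0.109 (limma adjusted p = 0.0091). CD5, found on T cells and a subset of B cells, was listed at 0 and 0.0218 FPKM with shRNAs 10 and 16, against 15.8 in the control library and 3.60 to 7.05 in TMD8. The leukocyte receptor gene LILRB1 fell to 0.340 and 0.216 FPKM, against 19.5 in the control library (limma adjusted p = 0.00733). CD5 and LILRB1 passed the filter through the control library alone, and PECAM1 through the STAT3 shRNA libraries, so the counts are a description. Without the filter the counts in this list were 2 higher and 7 lower of 18 genes, where 18.8% of 18098 genes were called in either direction.

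Of the ligand-binding receptors, FCER2 rose most by ratio of FPKM among the 6 members above control. FCER2 encodes CD23, the low-affinity IgE receptor, and was at 17.3 and 20.9 FPKM with shRNAs 10 and 16, against 0.197 in the control library. The mean of 19.1 ± 2.57 FPKM (SD, n = 2) was 96.9 times the control (log2 change 4.06, SE 0.17, limma adjusted p = 0.00879), and 1.52% of tested genes changed more. The log2 change depends on the pseudocount, at 6.01 with 0.1 FPKM and 2.21 with 5 FPKM, where CD52 had the larger rise (3.51). In TMD8 FCER2 was at 0.0399 FPKM in column 1 and listed at 0 in columns 2 and 3. FCER2 is the member whose downstream promoter window, shown above, holds the STAT motif, as do 6.57% of all promoter windows. A tie between that match and the change was not tested. ADAM10, the protease that sheds CD23, was at 21.1 and 18.2 FPKM with the STAT3 shRNAs against 11.3 in the control library. That change passed narrowly (limma adjusted p = 0.0494) and was lost under 5 of the 9 alternative settings that keep the test, with adjusted p of 0.0507 to 0.0992. ADAM28, which encodes another B-cell protease able to cleave CD23, was at 10.0 and 10.5 FPKM against 0.0488 in the control library (limma adjusted p = 0.00733). ADAM8 fell by 1.41 on the log2 scale (limma adjusted p = 0.0497), which did not pass at a pseudocount of 0.1 FPKM (adjusted p = 0.0581) or without the filter (adjusted p = 0.117). Of 6 genes tested in the list on CD23 shedding, 2 rose and 1 fell.

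CR2, the receptor for the complement fragment C3d and for Epstein-Barr virus, was low in every library. It stood at 0.0249 and 0.0170 FPKM with shRNAs 10 and 16, against 0.400 in the control library and 1.47, 0.896 and 0.952 in TMD8. With depth taken from the steps of low values, the OCI-LY10 values stand in the ratio of 2, 1 and 49 reads, the smallest whole numbers that match within 1%. If these are the read counts, the rate with the STAT3 shRNAs was 0.0539 times that in the control library, with an exact 95% interval of 0.0107 to 0.167 for counting error only. CR2 was under the filter. With no filter it had a log2 change of −0.46 (limma adjusted p = 0.0286), on a scale that understates the change of so low a gene, and 4 of the 9 members were then called higher and 2 lower, where 18.8% of 18098 genes were called in either direction. CD81, a tetraspanin that acts beside CR2 in the B-cell co-receptor, did not pass the test, at 79.0 and 73.9 FPKM against 64.4 (limma adjusted p = 0.158). Of 6 genes of complement receptors and regulators tested, 1 rose, IFITM1 and CD55 fell, and 3 did not pass. With small RNA genes left out, 3 rose and 2 fell, CD46 and CD59 being called in addition (limma adjusted p = 0.0299 and 0.028).

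CD38, the NAD-consuming ectoenzyme bound by daratumumab, was at 8.89 and 10.6 FPKM with shRNAs 10 and 16, against 2.04 in the control library. Its mean of 9.76 ± 1.22 FPKM (SD, n = 2) was 4.78 times the control (log2 change 1.82, SE 0.16, limma adjusted p = 0.0180), a call that ended when low values were kept (adjusted p = 0.052). With a pseudocount of 5 FPKM the log2 change of CD38 was 1.06. TMD8 held 1.47, 1.31 and 0.934 FPKM, below all OCI-LY10 libraries. Of 7 other genes of surface and NAD-related enzymes tested, 1 rose and 3 fell. NMNAT1, which makes NAD in the nucleus, rose by 1.00 on the log2 scale, and the adenosine deaminase gene ADA fell by 1.32 (limma adjusted p = 0.0182 and 0.0298). DPP4, a surface peptidase, fell by 1.03 (limma adjusted p = 0.0251). The calls of ADA and DPP4 were lost without the filter (adjusted p = 0.0768 and 0.0646). At a filter of 5 FPKM 0 rose and 2 fell of 4 tested, and with small RNA genes left out 2 rose and 4 fell.

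Set beside TMD8, most members in the library labelled OCI-LY10 control lay nearer to the other line than the STAT3 shRNA libraries did. The tables were normalised separately as far as is known, so these levels were compared with no test. On the log2(FPKM + 1) scale, the control library was closer to the TMD8 median than the STAT3 shRNA mean was for 8 of the 9 members, CD37 being the exception. Over all 11162 tested genes the same held for 69.4%. For 6 of the 9 the control library was closer to the TMD8 median than to the libraries labelled OCI-LY10 with STAT3 shRNA, against 60.3% of tested genes, so the members stood near the background. For CD24 the difference from the TMD8 median was −6.60 with the STAT3 shRNAs and 0.01 in the control library. MS4A1 was 2.84 above the TMD8 median with the STAT3 shRNAs and 1.73 above it in the control library. Inside the range of the 3 TMD8 columns lay CD37 and CD72 in the shRNA 10 library, CD37 in the shRNA 16 library and CD24 in the control library. Of all tested genes, 13.8%, 14.3% and 24.4% lay inside it in these libraries, in that order. By this measure the members in the control library were not nearer to TMD8 than genes in general.

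**Figure D3:**
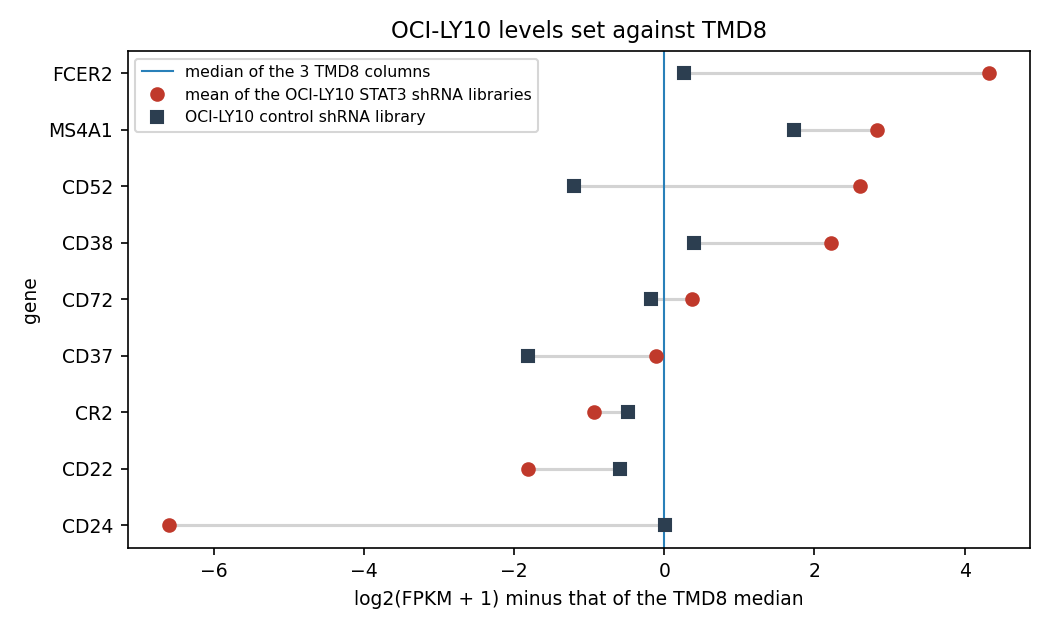
Difference in log2(FPKM + 1) from the median of the 3 TMD8 columns (x axis, with that median as the line at 0) for each of the 9 antigens (y axis): circles are the mean of the OCI-LY10 STAT3 shRNA libraries, squares the OCI-LY10 control library, joined by a grey line. The circle lies farther from 0 than the square for 8 genes, and for CD24 the circle is at −6.60 and the square at 0.01.

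The 2 STAT3 shRNAs of OCI-LY10 gave like levels for most members. The ratio of shRNA 16 to shRNA 10 ran from 0.925 for CD24 to 1.42 for CD72 among the 8 members tested. A difference of at least 1.4-fold between the shRNAs, on the scale of FPKM + 1, was seen in 5.34% of tested genes, and of the members CD72 alone reached it. With 1 library for each shRNA, this difference has no replicate check.

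The order of the antigens by FPKM, a level per length of gene, was the same with both STAT3 shRNAs: CD37, MS4A1, CD52, CD72, CD22, FCER2, CD38, CD24 and CR2, from high to low. No neighbours in that order overlapped between the libraries. In the control library the order was CD24, CD37, MS4A1, CD22, CD72, CD52, CD38, CR2 and FCER2. CD24 was thus the most abundant antigen there and last but one with the STAT3 shRNAs. TMD8 columns 1 and 2 had CD37, CD24, CD22, MS4A1, CD72, CD52, CD38, CR2 and FCER2 in that order, and column 3 had CR2 above CD38. Over the 3 TMD8 columns the ranges of MS4A1 and CD72 overlapped, as did those of CD38 and CR2.

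Patterns most like those of the members were sought among 10095 genes of mean 1 FPKM or more in both tables, by the largest log2 deviation over the 6 libraries after centring. CD72 was matched most closely by MIEF2, with a largest deviation of 0.08, and NOB1, also at 0.08. GSG2 followed CD22 within 0.12, and FGD2 and LIMD2 followed CD38 within 0.15 each. Looser matches were KLF9 and GAS7 for CD37 (0.23 and 0.24), MCM3 and MX1 for MS4A1 (0.29 and 0.35) and ST14 and E2F2 for CD52 (0.31 and 0.37). VIM, the intermediate filament gene, and GPR15, a chemoattractant receptor gene, came nearest to CD24, at 0.44 and 0.47. VIM was at 0.0731 and 0.10 FPKM with the STAT3 shRNAs, 185 in the control library and 105 to 179 in TMD8. FCER2 and CR2 did not reach a mean of 1 FPKM in both tables and were not matched.

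Other surface genes of the B lineage changed in both directions. Of 37 tested, 11 rose, 12 fell and 14 did not pass, with a median log2 change of −0.02. TNFRSF17, the plasma cell receptor BCMA, was at 39.8 and 35.0 FPKM with the STAT3 shRNAs, against 1.57 in the control library and 1.71 to 3.90 in TMD8 (limma adjusted p = 0.00755). CD180, a Toll-like receptor homologue, was at 29.9 and 34.7 FPKM against 3.59 (limma adjusted p = 0.0103). The co-stimulatory ligand gene CD86 fell to 0.477 and 0.563 FPKM, against 47.9 in the control library and 57.2 to 61.7 in TMD8 (limma adjusted p = 0.00676). For TNFRSF17, CD86 and CD180 (2.93 to 3.99 FPKM in TMD8), as for FCER2 and CD24, the STAT3 shRNA libraries were the ones that lay far from the rest. Over all tested genes, the control library was closer to the TMD8 median than the STAT3 shRNA mean was for 69.4%. The pattern is therefore not particular to these genes. Without the filter on low values 7 of 44 rose and 11 fell.

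Of 26 transcription factor genes that act on such antigens, 10 rose and 8 fell, and without the filter on low values 7 rose and 5 fell. POU2AF1, a co-activator of octamer-binding factors, was at 197 and 181 FPKM with the STAT3 shRNAs against 2.44 in the control library, and PRDM1, which drives plasma cell fate, was at 0.685 and 0.585 against 9.39 (limma adjusted p = 0.00676 and 0.00773). PAX5, the B-cell identity factor, did not pass, at 88.1 and 92.2 FPKM against 72.3 (limma adjusted p = 0.0933), and passed with small RNA genes left out (log2 change 0.45, limma adjusted p = 0.0326).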

How the data were processed

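The authors deposited FPKM values, 1 per gene and library, in 1 table for OCI-LY10 and 1 for TMD8, which has no header. Per the submitters' processing notes, TopHat, Bowtie2 and the build hg19 were used, with no version or role stated. Not given in the sources used here are the program that computed FPKM, its annotation and any scaling between libraries. The library kit was TruSeq RNA, per the labels' protocols. Rows of 2 repeated symbols were summed in each table.

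FPKM gives no read totals. The commonest ratio of values under 0.1 FPKM gave depth relative to shRNA 10 as 0.73 (shRNA 16) and 1.52 (control), and relative to TMD8 column 1 as 0.956 and 0.867 for columns 2 and 3. FPKM sums were 905356 to 1382655 per library, and small RNA genes made up 22.5% to 58.2% of them.

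Genes of mean 1 FPKM or more over the 3 OCI-LY10 libraries (11162) were tested with limma 3.58.1 (R 4.3.3), two-sided, on log2(FPKM + 1). Variances were moderated with a trend on the mean, and p-values were adjusted by Benjamini-Hochberg, with calls at 0.05. The 2 STAT3 shRNA libraries were set against 1 control library, with 1 residual and 1.64 prior degrees of freedom. The p-values measure only the spread between the 2 shRNA libraries, and nothing says they came from separate cultures. The test was checked on simulated data whose control library had the same gene means as the others, set changes in a few genes aside. That check says nothing about a control library as unlike the others as the one here. TMD8 columns entered no test. The members, gene lists and tests were chosen with earlier results of these data known. Named genes were the 9 members, STAT3, up to 2 called genes in each direction per list, and partners of the members. For genes of like pattern, Y-linked genes were left out. CD24 was by choice not counted as Y-linked. Some genes the rule names are not reported here and enter counts alone. A search for tail motifs in the proteins had been planned and was not run.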

Additional observations from a re-analysis of the deposited data

How the results depend on the processing

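The calls of MS4A1, CD37, CD52, FCER2 and CD24, and the lack of one for CD72, were kept under pseudocounts of 0.1 and 5 FPKM, no filter on low values, a filter at 5 FPKM, quantile normalization, median-of-ratios scaling, small RNA genes left out, genes listed at 0 left out, and limma without a trend. CD22 and CD38 lost their calls in 1 of these, without the filter (adjusted p = 0.0956 and 0.052), where CR2 was called, giving 4 members higher and 2 lower. No direction reversed. The size of the FCER2 change moved by over 1.5 times with the pseudocount, and that of CD38 at 5 FPKM. Over all genes, the count of higher genes (2263) became 1299 without the filter and 3541 with small RNA genes left out, and that of lower genes (1943) became 1178 at a filter of 5 FPKM. Leaving out small RNA genes moved the median log2 change of all genes to 0.19, against 0.06. The cause was not tested. Leaving out either STAT3 shRNA library leaves no residual degrees of freedom. At 1.5-fold and with no test, 5 to 6 members were then higher and 2 lower, with 2618 to 2623 genes higher and 2181 to 2243 lower. No paired analysis was possible because each shRNA has 1 library in OCI-LY10 and the TMD8 columns carry no names. Depth limits CR2 in OCI-LY10, and FCER2 in TMD8.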

Other observations

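The 3 TMD8 columns, which the labels tie to no shRNA, held 120, 24.3 and 22.5 FPKM of STAT3 in columns 1 to 3, so column 1 stood apart from the other two. Of the 9 antigens 7 were highest in column 1, all but CD52 and CD24. Some were so by little, such as CD22, at 95.8 FPKM against 94.0 in column 3. The share of all genes highest in column 1 was not counted, so this count has no background. Small RNA genes made up 22.5%, 28.7% and 43.3% of the FPKM sums of columns 1 to 3. A tie of the antigens to STAT3 in TMD8 was not tested. CD37 was lowest in column 3, at 402 FPKM against 710.3 and 643 in columns 1 and 2. The highest of the columns exceeded the lowest by at least 1.14-fold (MS4A1) and at most 1.77-fold (CD37) for the 8 antigens other than FCER2, with CD38 at 1.57-fold and CR2 at 1.64-fold. These are values of single libraries and were compared with no test.

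Plasma cell markers moved both ways in OCI-LY10: of 9 tested, 3 rose and 3 fell. XBP1, a factor of secretory cells, was at 77.5 and 67.4 FPKM with the STAT3 shRNAs against 20.7 in the control library (limma adjusted p = 0.0158), while IRF4 was at 73.9 and 80.8 FPKM against 411 (limma adjusted p = 0.00916). Among the 10 B-cell defining markers 5 rose and 2 fell. The kinase gene BLK was at 87.9 and 93.5 FPKM against 4.94 in the control library (limma adjusted p = 0.00717), and the kinase gene BTK at 90.0 and 84.7 FPKM against 188 (limma adjusted p = 0.0177). Of 14 housekeeping genes 2 rose, 3 fell and 9 did not pass.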
